A study of Homo sapiens with 36 samples.

Results

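Genes of the lysosome and of autophagy were followed in 6 human colon cancer cell lines given the BET inhibitor JQ1. The set is a fixed list of 36 genes, found by symbol in a table of 26468 genes. All 36 were in the table and all 36 were among the 15542 genes tested. They comprise 11 acid hydrolases, 4 further lysosomal membrane and lumen proteins, 4 proton pump genes, 11 genes of the autophagy machinery, 4 cargo receptors and 2 transcriptional regulators. The list was drawn up with earlier results of these data known, so its counts describe the genes and are not independent evidence about a pathway.

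JQ1 blocks the acetyl-lysine pocket of BET bromodomain proteins and so keeps them from acetylated chromatin. The lines were HCT 116, SW 480, HT-29, COLO 205, HCT-15 and COLO 320, all established lines from colon tumours, and each was exposed to 0.5 µM JQ1 or to DMSO for 24 h, with 3 libraries per line and treatment, 36 in all. Cells were collected in log-phase growth, and the labels name no further agent or genetic change. The labels do not say whether the 3 libraries of a group came from separate cultures, so p-values measure the spread between these libraries, which may be technical. A line is a single cell population, and differences between lines rest on 1 line each.

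Lysosomes are acid compartments in which hydrolases take apart proteins, lipids, glycans and glycogen. The vacuolar proton pump (V-ATPase) supplies the acid, and membrane proteins such as LAMP1 and LAMP2 protect and maintain the compartment. In macroautophagy a kinase complex with ULK1 and a lipid kinase complex with BECN1 start a membrane sac, a conjugation system with ATG7, ATG5 and ATG16L1 couples LC3 and GABARAP proteins to it, and receptors such as SQSTM1 bring cargo to it before it fuses with a lysosome. TFEB and TFE3 are transcription factors that enter the nucleus when nutrient signalling is low and bind E-box-like elements in promoters of many of these genes.

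Promoters from RefSeq (GRCh38.p14), 250 bases before to 50 after the annotated start, were matched by Entrez number for 29 of the 36 genes. The others were LAMP2, ATP6V1H, HEXA, CTSB, ATP6V1A, UVRAG and BNIP3L. The matched promoters were searched for the E-box CACGTG and for TCACGTGA, a core of the element that TFEB binds. Each word reads the same on both strands, every TCACGTGA contains a CACGTG, and MYC with MAX also binds CACGTG. The E-box was present in 7 promoters (24.1%), against 9.86% of 11426 promoters of tested genes and 7.43% of all 27305 in the table. TCACGTGA was present in 5 (17.2%), against 1.83% and 1.04%. The 7 belong to CTSA, CTSD, GAA, NEU1, LAMP1, MCOLN1 and ATP6V0D1, and all but CTSD and NEU1 hold the longer word. None belongs to an autophagy gene, a receptor or a regulator, and no match says only that these letters are not in this window. The 250 bases before the start are shown for the gene with the largest JQ1 rise of the set (NEU1), the gene with the most matches (LAMP1), the proton pump gene with a match (ATP6V0D1) and the gene with the widest range of JQ1 changes among the 7 (GAA), with capitals marking CACGTG or TCACGTGA. The last 2 capitals of LAMP1 begin a match that runs past the start. On GRCh38.p14 they lie at chr6:31862822-31863071 (minus strand), chr13:113296989-113297238 (plus strand), chr16:67481158-67481407 (minus strand) and chr17:80101331-80101580 (plus strand), and each is written 5′ to 3′ on its gene's strand.
NEU1: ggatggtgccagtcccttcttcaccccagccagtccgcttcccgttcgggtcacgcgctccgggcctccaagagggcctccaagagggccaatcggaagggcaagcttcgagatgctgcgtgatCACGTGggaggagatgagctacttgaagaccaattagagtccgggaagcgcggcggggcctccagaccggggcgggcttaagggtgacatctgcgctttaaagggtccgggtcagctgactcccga
LAMP1: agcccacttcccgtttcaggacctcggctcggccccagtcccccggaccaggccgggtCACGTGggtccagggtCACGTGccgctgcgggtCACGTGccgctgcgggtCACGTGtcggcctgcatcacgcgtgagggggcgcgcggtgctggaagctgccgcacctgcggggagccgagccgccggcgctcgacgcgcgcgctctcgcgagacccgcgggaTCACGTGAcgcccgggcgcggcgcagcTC
ATP6V0D1: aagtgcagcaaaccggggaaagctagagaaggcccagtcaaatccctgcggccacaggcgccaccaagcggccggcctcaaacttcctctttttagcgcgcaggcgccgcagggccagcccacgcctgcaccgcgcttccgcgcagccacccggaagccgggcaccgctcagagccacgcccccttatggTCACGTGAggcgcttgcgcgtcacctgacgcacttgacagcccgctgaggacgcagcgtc
GAA: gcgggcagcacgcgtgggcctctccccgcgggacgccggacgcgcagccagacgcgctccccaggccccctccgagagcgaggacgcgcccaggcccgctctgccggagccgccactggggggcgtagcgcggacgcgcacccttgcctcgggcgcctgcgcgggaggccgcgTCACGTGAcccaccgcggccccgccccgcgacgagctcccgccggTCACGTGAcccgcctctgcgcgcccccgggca

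In NEU1 the single match starts 126 bases before the start, and in ATP6V0D1 it starts 59 bases before. In GAA they start 76 and 31 bases before. In LAMP1 there are 6 in the window searched, 5 of them whole in the bases printed, with 4 between 192 and 142 bases before the start, 1 at 28 and 1 that runs across the gene start. As a description without a test, all 7 genes with a match were higher with JQ1 on average, with a median log2 change of 0.30. Of the 22 matched members without one, 16 were higher and 5 lower, with a median of 0.38. Over all tested genes without CACGTG in this window, 4234 of 10299 were higher and 5111 lower, with a median of -0.04. Over all tested genes with CACGTG in this window, 428 of 1127 were higher and 598 lower, with a median of -0.07. Over those with the longer word TCACGTGA, 109 of 209 were higher and 87 lower, with a median of 0.06.

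Depth in genes was between 18.8 M and 53.1 M reads per library (median 24.5 M), and the lowest read number of any member in any library was 11, for TFEB in HCT-15 with JQ1. Levels are RPKM, reads per kilobase of gene per M reads, so levels of different genes are compared per length. A change is JQ1 minus DMSO on log2(RPKM + 0.5), which understates the change of genes at a few RPKM or less. It was called at an adjusted p under 0.05 in limma's moderated test over all 15542 genes, and a rise or a fall means a called change. These are bulk samples, in which fewer cells of a type and less RNA per cell cannot be told apart. Of 9 colon epithelial markers, 6 to 9 reached 1 RPKM in every line but COLO 320, where 4 did with JQ1 and 5 with DMSO and CDH1, KRT19 and VIL1 did not. Their sum was 7072 to 7165 RPKM with JQ1 and 2326 to 2349 RPKM with DMSO in HCT-15, and 8988 to 9091 RPKM with JQ1 and 3978 to 4042 RPKM with DMSO in HT-29. In COLO 205 it was 4360 to 4421 RPKM with JQ1 and 2951 to 3047 RPKM with DMSO, and in COLO 320 it was 888 to 921 RPKM with JQ1 and 1153 to 1165 RPKM with DMSO. Summed markers of endothelium stayed under 1 RPKM in all groups. Leukocyte markers summed to 0.03 to 5.26 RPKM, and only CD14 (HT-29 with DMSO, and HCT-15) and PTPRC (COLO 320) reached 1 RPKM. The leukocyte sum was 1.81 to 2.16 RPKM with JQ1 and 5.17 to 5.26 RPKM with DMSO in HCT-15, and 0.33 to 0.72 RPKM with JQ1 and 1.28 to 1.87 RPKM with DMSO in HT-29. Fibroblast markers summed to 0.18 to 3.38 RPKM except in COLO 320 with DMSO, where they reached 15.5 to 15.7 RPKM, against 2.93 to 3.21 RPKM in COLO 320 with JQ1. The part of these genes in the results was not tested.

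With JQ1 most of the 36 genes were higher, in every line. On average over the 6 lines 28 rose and 7 fell, and ATG9A alone was not called, while 40.2% of all tested genes rose and 48.3% fell. The median member changed by 0.37 on the log2 scale, against -0.04 for all tested genes. In HT-29 31 members rose and 4 fell (background 36.6% and 37.3%), with a median of 0.55. In COLO 205 31 rose and 4 fell (34.2% and 38.6%), with a median of 0.44. In HCT-15 26 rose and 7 fell (34.8% and 35.4%), with a median of 0.31. Dividing by total reads there gave 23 rises and 8 falls among members, and moved the calls over all genes to 4311 higher and 6816 lower, against 5413 higher and 5503 lower as deposited. In SW 480 24 rose and 11 fell (33.9% and 40.1%), with a median of 0.29. In HCT 116 23 rose and 9 fell (32.4% and 35.5%), with a median of 0.21. COLO 320 had the fewest rises, 19, with 8 falls (31% and 37.2%), and a median of 0.10. The median over all tested genes lay between -0.02 and 0 in each line. With the cell line as the unit, 6 differences in place of 36 libraries, 21 members rose and 2 fell on average. Over all 15542 tested genes that setting called 2893 higher and 3162 lower, against 6245 and 7500 with the libraries. The 12 average calls of members lost that way were those of CTSA, CTSD, CTSL, CTSZ, CTSH, HEXA, WIPI1, ATG5, ATG7, ATG16L1, GABARAPL1 and TFE3.

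Direction was shared for part of the set. In all 6 lines 13 members rose: NEU1, GLA and GUSB among the hydrolases, LAMP2, the pump genes ATP6V0D1, ATP6V1A and ATP6AP1, the autophagy genes ULK1, MAP1LC3B and GABARAPL2, and the receptors SQSTM1, OPTN and BNIP3L. TFEB and UVRAG fell in all 6. Of all tested genes 11.2% were called higher in all 6 lines and 11.7% lower in all 6. With quantile scaling 16 members rose in all 6, the others added being LAMP1, MCOLN1 and BECN1, and TFEB alone fell in all 6. That scaling also gave more rises and fewer falls over all tested genes in every line but HCT-15. In COLO 320 it gave 5721 and 5071, against 4824 and 5780 as deposited. The shares of 11.2% and 11.7% are for the values as deposited. With voom and with each line fitted alone UVRAG was not called in HCT 116, and those that fell in all 6 were TFEB and CTSZ. A further 11 rose in some lines and fell in others: CTSA, CTSD, CTSL, CTSH, HEXA, NPC2, WIPI1, ATG9A, ATG7, ATG16L1 and TFE3. Of all tested genes 33.6% did so. The F test of an equal JQ1 change over the 6 lines was called for 36 of 36 members, where 93.3% of all tested genes were called.

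**Figure D1:**
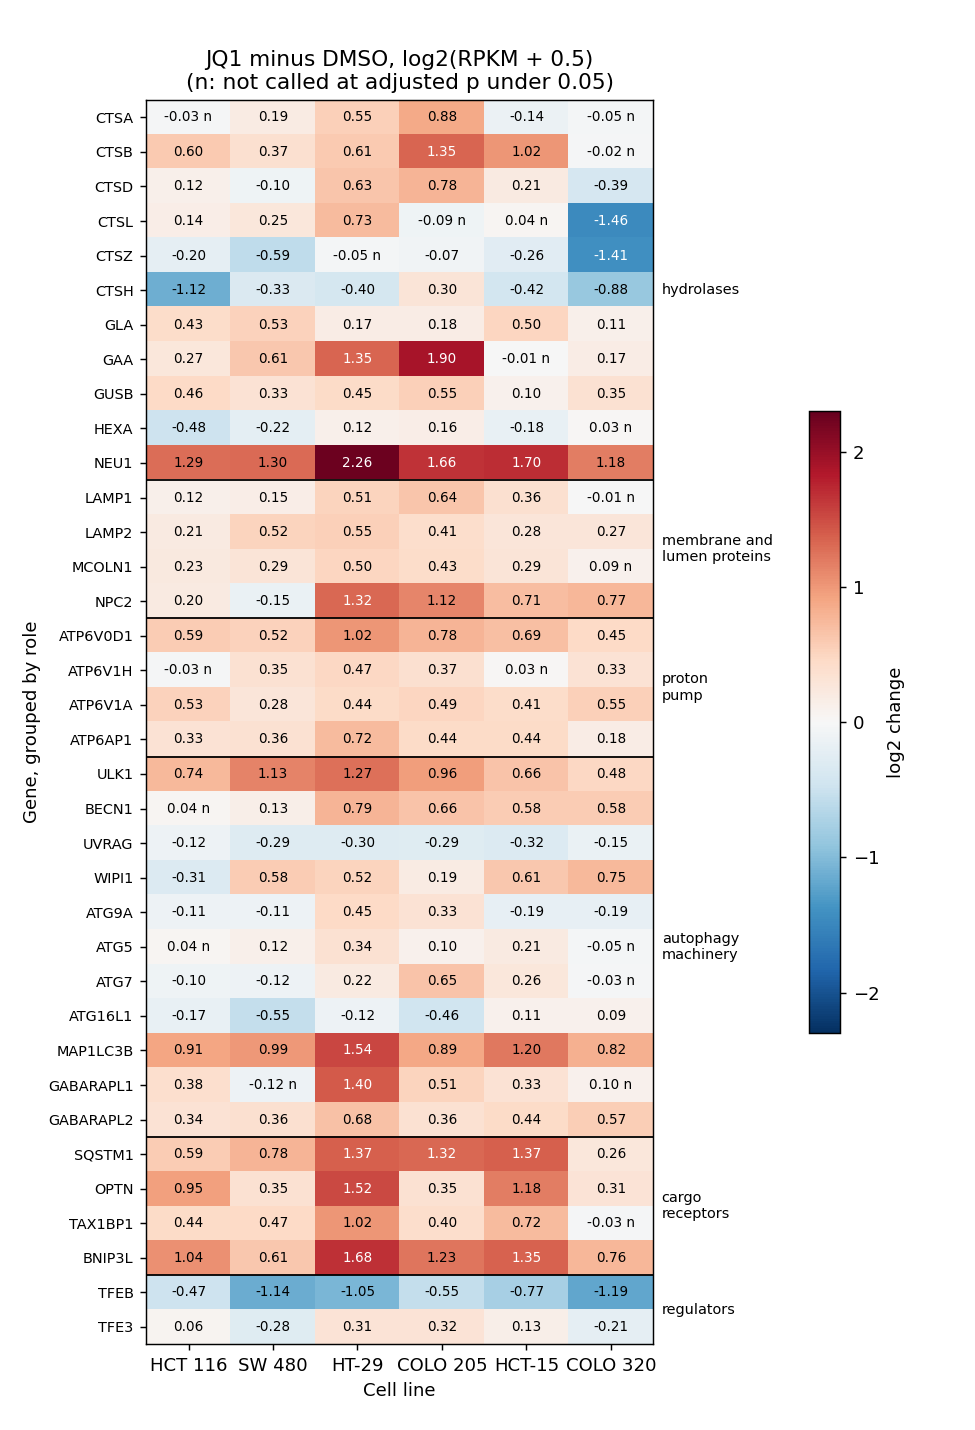
Change with JQ1 of the 36 lysosome and autophagy genes (rows, by role) in the 6 cell lines (columns), as JQ1 minus DMSO on log2(RPKM + 0.5), printed in each cell and coloured by direction and size, with n for changes that were not called. Most cells of the map are positive, the HT-29 column has a median of 0.55 and the COLO 320 column one of 0.10, and TFEB and UVRAG are negative in all 6 lines.

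Among the acid hydrolases 7 rose on average and 4 fell (40.2% and 48.3% of all tested genes). By line the counts ran from 9 rises and 1 fall in HT-29 and COLO 205 to 4 and 4 in COLO 320. Of all tested genes 31% to 36.6% rose and 35.4% to 40.1% fell in each line. NEU1, the sialidase that removes sialic acid from glycoproteins and glycolipids, had the largest rise of the set, 1.56 ± 0.0159 (SE), an average of 2.95-fold (adjusted p = 1.88e-33). In HT-29, NEU1 had 110.4, 111 and 110.1 RPKM with JQ1 and 22.6, 23.2 and 22.4 RPKM with DMSO. In COLO 205, NEU1 had 92.2, 90.1 and 88.3 RPKM with JQ1 and 28.0, 28.3 and 28.4 RPKM with DMSO. In HCT-15, NEU1 had 36.6, 37.8 and 39.0 RPKM with JQ1 and 11.3, 11.7 and 10.8 RPKM with DMSO. In these lines every JQ1 library stood above every DMSO library. In HCT 116, NEU1 had 25.1, 22.7 and 25.8 RPKM with JQ1 and 9.88, 9.27 and 10.1 RPKM with DMSO. In SW 480, NEU1 had 41.9, 41.6 and 41.3 RPKM with JQ1 and 16.6, 15.7 and 17.7 RPKM with DMSO. In COLO 320, NEU1 had 34.8, 34.7 and 34.5 RPKM with JQ1 and 15.6, 14.8 and 14.8 RPKM with DMSO. Here too the groups did not overlap, and the change ran from 1.18 in COLO 320 to 2.26 in HT-29. HT-29 exceeded the mean of the other 5 lines (adjusted p = 6.78e-16), and HCT 116, SW 480 and COLO 320 fell short of the mean of the lines other than themselves. CTSA, the carboxypeptidase that holds NEU1 stable in a complex, moved far less. It had 155 ± 0.576 RPKM with JQ1 and 84.0 ± 1.74 RPKM with DMSO in COLO 205 (SD, n = 3 each), a rise of 0.88, and 38.6 ± 1.20 RPKM with JQ1 and 42.7 ± 1.14 RPKM with DMSO in HCT-15, a fall with log2 change -0.14.

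The cysteine proteases went different ways. CTSB, cathepsin B, rose in 5 lines and averaged 0.65 ± 0.00878 (SE; adjusted p = 8.90e-31). Its level was 839 ± 9.01 RPKM with JQ1 and 329 ± 4.80 RPKM with DMSO in COLO 205, the highest JQ1 level of any member, and 35.4 ± 0.990 RPKM with JQ1 and 35.9 ± 0.844 RPKM with DMSO in COLO 320, where it was not called (adjusted p = 0.434). CTSL, cathepsin L, had the widest spread of changes in the set, -1.46 in COLO 320 to 0.73 in HT-29. In HT-29, CTSL had 3.34, 3.64 and 4.004 RPKM with JQ1 and 1.99, 1.93 and 2.08 RPKM with DMSO. In SW 480, CTSL had 23.6, 24.2 and 24.4 RPKM with JQ1 and 20.1, 19.8 and 20.5 RPKM with DMSO. In HCT 116, CTSL had 26.7, 28.0 and 27.6 RPKM with JQ1 and 24.2, 24.8 and 25.4 RPKM with DMSO. It rose in these 3 lines without overlap between treatments, most in HT-29, where its level was low. In COLO 320, CTSL had 0.609, 0.666 and 0.709 RPKM with JQ1 and 2.56, 2.91 and 2.64 RPKM with DMSO. In COLO 205, CTSL had 0.869, 0.968 and 0.906 RPKM with JQ1 and 0.835, 1.01 and 1.20 RPKM with DMSO. In HCT-15, CTSL had 25.8, 24.2 and 26.8 RPKM with JQ1 and 26.2, 24.2 and 24.4 RPKM with DMSO. CTSL fell in COLO 320 (-1.46 ± 0.0616, SE, adjusted p = 3.27e-18), while in COLO 205 and HCT-15 the treatments overlapped and no change was called. The COLO 320 libraries held 30, 27 and 34 reads of CTSL with JQ1 and 123, 143 and 129 reads with DMSO. The size of that fall depended on the setting, from -2.02 to -1.16 over its alternatives. Its average call, -0.07, was lost at a pseudocount of 1, with quantile scaling, with median centring and when each line counted as 1 unit (adjusted p between 3.32e-04 and 0.847 over its alternatives).

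CTSH, cathepsin H, an aminopeptidase, averaged -0.47 ± 0.0395 (SE; adjusted p = 5.09e-12), with changes of -1.12 in HCT 116 to 0.30 in COLO 205. In HCT 116, CTSH had 4.62, 3.83 and 4.33 RPKM with JQ1 and 9.44, 10.1 and 9.99 RPKM with DMSO. In COLO 320, CTSH had 9.94, 10.8 and 10.1 RPKM with JQ1 and 18.8, 19.4 and 19.6 RPKM with DMSO. In HCT-15, CTSH had 25.3, 24.9 and 27.1 RPKM with JQ1 and 34.2, 34.7 and 34.5 RPKM with DMSO. The JQ1 libraries were lower in all of these. In HT-29, CTSH had 83.5, 86.7 and 89.3 RPKM with JQ1 and 115, 115 and 112 RPKM with DMSO. In SW 480, CTSH had 1.51, 2.10 and 2.88 RPKM with JQ1 and 2.70, 2.54 and 3.09 RPKM with DMSO. In COLO 205, CTSH had 70.3, 72.6 and 69.0 RPKM with JQ1 and 57.5, 58.2 and 56.4 RPKM with DMSO. It fell in HT-29, while in SW 480 the treatments overlapped at a low level and the fall there was lost without JQ1 replicate 1 (log2 change -0.14, and -0.52 without JQ1 replicate 3, against -0.33 with all libraries) or with the line fitted alone (adjusted p between 4.43e-07 and 0.184 over its alternatives). COLO 205 was the exception, with a rise of 0.30 (adjusted p = 0.00712). CTSZ, cathepsin Z, a carboxypeptidase, averaged -0.43 ± 0.0133 (SE; adjusted p = 2.76e-22) and was higher in no line. In COLO 320, CTSZ had 20.5, 19.8 and 20.1 RPKM with JQ1 and 53.5, 53.0 and 57.0 RPKM with DMSO. In SW 480, CTSZ had 123, 124 and 125 RPKM with JQ1 and 189, 181 and 189 RPKM with DMSO. In HCT-15, CTSZ had 34.9, 35.8 and 39.0 RPKM with JQ1 and 44.8, 44.2 and 42.7 RPKM with DMSO. These were its largest falls, -1.41, -0.59 and -0.26 on the log2 scale. In HCT 116, CTSZ had 64.1, 63.3 and 63.0 RPKM with JQ1 and 70.7, 71.5 and 77.1 RPKM with DMSO. In COLO 205, CTSZ had 116, 115 and 119 RPKM with JQ1 and 123, 121 and 125 RPKM with DMSO. In HT-29, CTSZ had 196, 198 and 195 RPKM with JQ1 and 202, 207 and 201 RPKM with DMSO. HCT 116 fell by less, and HT-29 was not called (adjusted p = 0.154) although its groups did not overlap; the call appeared with quantile scaling, total reads, voom and the line fitted alone. The small change in COLO 205 (-0.07) reversed to 0.09 with quantile scaling and was lost, among other settings, without DMSO replicate 1 or 3 or JQ1 replicate 1 or 2 (adjusted p between 0.0129 and 0.256 over its alternatives). In COLO 320, where CTSL, CTSZ and CTSH all fell, the summed fibroblast markers were also lower with JQ1, as given above. CTSZ and CTSH fell in other lines too, among them HCT 116 and HCT-15. The fibroblast sum was 2.79 to 3.38 RPKM with JQ1 and 1.86 to 2.36 RPKM with DMSO in HCT 116. It was 0.181 to 0.269 RPKM with JQ1 and 0.293 to 0.364 RPKM with DMSO in HCT-15. A link between these markers and the cathepsins was not tested.

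**Figure D2:**
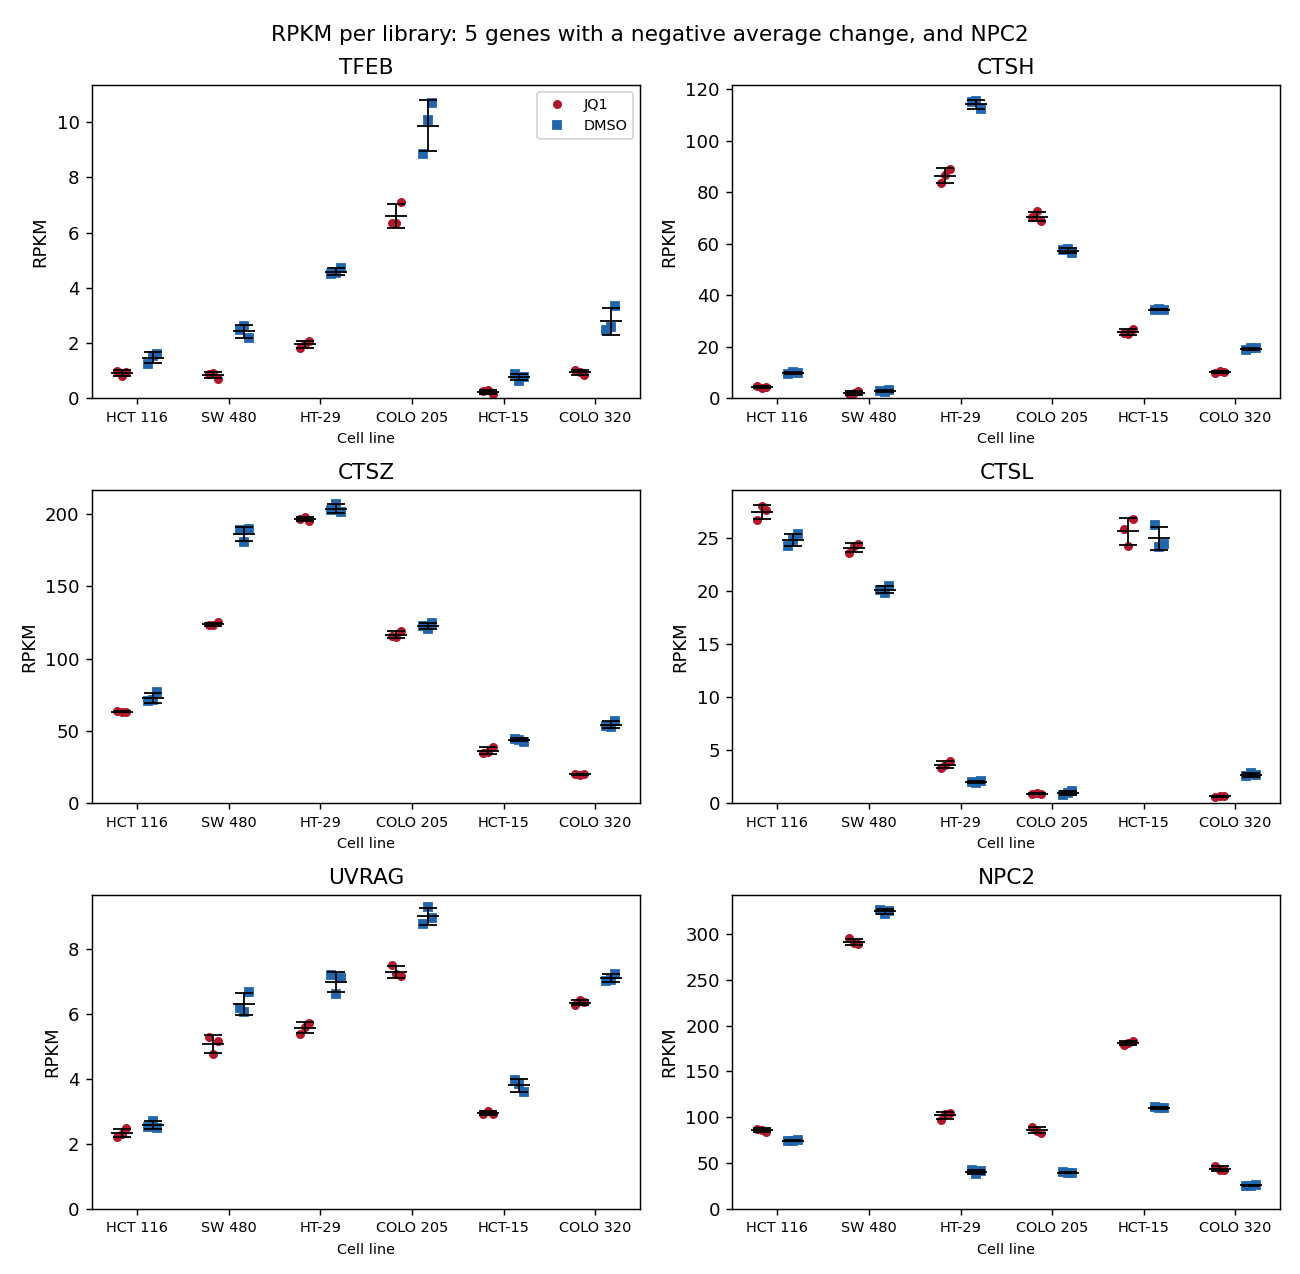
RPKM per library (points, JQ1 left of DMSO in each line, with group mean and SD as bars) of TFEB, CTSH, CTSZ, CTSL and UVRAG, whose average change was negative, and of NPC2, which fell in SW 480 only. In the CTSH panel the JQ1 mean is above the DMSO mean in COLO 205 and below it in the other 5 lines. The SW 480 libraries overlap there. The CTSL panel shows COLO 320 with a mean of 0.662 RPKM with JQ1 and 2.71 RPKM with DMSO.

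CTSD, the aspartic protease of the lysosome, averaged 0.21 ± 0.0144 (SE; adjusted p = 7.08e-14), with a span from -0.39 in COLO 320 to 0.78 in COLO 205. In COLO 205, CTSD had 530.1, 528 and 531 RPKM with JQ1 and 299, 305 and 324 RPKM with DMSO. In HT-29, CTSD had 443, 439 and 433 RPKM with JQ1 and 287, 284 and 277 RPKM with DMSO. In HCT-15, CTSD had 91.7, 93.9 and 97.1 RPKM with JQ1 and 80.2, 81.0 and 83.0 RPKM with DMSO. JQ1 libraries were the higher ones in these lines, by the widest margin in COLO 205 and HT-29, the 2 lines with the most CTSD in DMSO. In HCT 116, CTSD had 60.9, 61.0 and 60.3 RPKM with JQ1 and 53.0, 56.5 and 57.9 RPKM with DMSO. In COLO 320, CTSD had 83.2, 82.6 and 88.2 RPKM with JQ1 and 112, 108 and 112 RPKM with DMSO. In SW 480, CTSD had 91.9, 91.3 and 98.1 RPKM with JQ1 and 105, 94.7 and 102 RPKM with DMSO. HCT 116 had a small rise and COLO 320 a fall (adjusted p = 9.69e-11). In SW 480 the treatments overlapped, and the fall there was lost with median centring, with the line fitted alone, and without DMSO replicate 1, JQ1 replicate 1 or JQ1 replicate 2 (adjusted p between 7.67e-04 and 0.113 over its alternatives). GAA, which breaks down glycogen, rose most where it was scarce. It had 5.33 ± 0.159 RPKM with JQ1 and 1.06 ± 0.0212 RPKM with DMSO in COLO 205 and 3.54 ± 0.194 RPKM with JQ1 and 1.09 ± 0.0783 RPKM with DMSO in HT-29, rises of 1.90 and 1.35 on the log2 scale, but 36.7 ± 0.710 RPKM with JQ1 and 36.9 ± 1.14 RPKM with DMSO in HCT-15, where it was not called (adjusted p = 0.897). GLA, alpha-galactosidase A, and GUSB, beta-glucuronidase, rose in every line, by 0.11 in COLO 320 to 0.53 in SW 480 and by 0.10 in HCT-15 to 0.55 in COLO 205. HEXA, the alpha subunit of beta-hexosaminidase A, averaged -0.10 ± 0.0117 (SE). It fell in HCT 116 (-0.48), SW 480 (-0.22) and HCT-15 (-0.18) and rose in HT-29 (0.12) and COLO 205 (0.16). The 11 hydrolases summed to 1941 ± 12.3 RPKM with JQ1 and 1043 ± 17.04 RPKM with DMSO in COLO 205 and to 391 ± 6.56 RPKM with JQ1 and 426 ± 3.32 RPKM with DMSO in COLO 320.

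All 4 membrane and lumen genes rose on average, as did 40.2% of all tested genes. NPC2, the lumenal carrier that hands cholesterol to NPC1, averaged 0.66 ± 0.0138 (SE; adjusted p = 2.12e-26) and ranged from -0.15 in SW 480 to 1.32 in HT-29. In HT-29, NPC2 had 97.5, 104 and 105 RPKM with JQ1 and 42.4, 38.3 and 40.7 RPKM with DMSO. In COLO 205, NPC2 had 89.3, 85.4 and 83.0 RPKM with JQ1 and 40.2, 39.1 and 38.8 RPKM with DMSO. In COLO 320, NPC2 had 46.7, 42.5 and 42.0 RPKM with JQ1 and 25.3, 24.9 and 26.0 RPKM with DMSO. The JQ1 libraries were the higher ones in each. In HCT-15, NPC2 had 179, 181 and 184 RPKM with JQ1 and 111, 110.0 and 109.6 RPKM with DMSO. In HCT 116, NPC2 had 87.4, 86.5 and 83.4 RPKM with JQ1 and 74.5, 73.9 and 75.1 RPKM with DMSO. In SW 480, NPC2 had 296, 290.4 and 289.9 RPKM with JQ1 and 327, 322 and 326 RPKM with DMSO. SW 480, the line with the most NPC2 in DMSO, was the exception, with a fall (adjusted p = 1.71e-04) and no overlap between treatments. LAMP1 rose in 5 lines, by as much as 0.64 in COLO 205. In COLO 320 it had 115 ± 0.910 RPKM with JQ1 and 116 ± 1.81 RPKM with DMSO (adjusted p = 0.801), and there quantile scaling gave a called rise of 0.05. In HCT-15 its rise of 0.36 was 0.24 with total reads as the divisor. LAMP2, whose isoform A is the receptor of chaperone-mediated autophagy, rose in all 6 lines, by 0.21 in HCT 116 to 0.55 in HT-29. MCOLN1, a lysosomal calcium channel, rose in 5 and reached 5.23 ± 0.218 RPKM with JQ1 and 3.57 ± 0.168 RPKM with DMSO in HT-29, and in COLO 320 it was not called (adjusted p = 0.107).

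The 4 proton pump genes rose on average, and none fell in any line, where 35.4% to 40.1% of all tested genes fell in each line and 40.2% rose on average. ATP6V0D1, a subunit of the membrane sector, rose most, 0.68 ± 0.0104 (SE), with 81.6 ± 0.525 RPKM with JQ1 and 40.1 ± 0.252 RPKM with DMSO in HT-29 and 48.7 ± 0.305 RPKM with JQ1 and 35.5 ± 0.981 RPKM with DMSO in COLO 320, the lines with its largest and smallest change. ATP6V1A, the catalytic subunit of the cytosolic sector, had the most even change of the 4, from 0.28 in SW 480 to 0.55 in COLO 320. ATP6AP1, an accessory protein, rose by 0.18 in COLO 320 to 0.72 in HT-29. ATP6V1H, the regulatory subunit H, rose in 4 lines and was not called in HCT 116 (adjusted p = 0.629) or HCT-15 (adjusted p = 0.583). Summed, the 4 genes had 291 ± 2.22 RPKM with JQ1 and 177 ± 1.66 RPKM with DMSO in HT-29 and 153 ± 2.81 RPKM with JQ1 and 116 ± 2.05 RPKM with DMSO in HCT 116.

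Of the 11 genes of the autophagy machinery 8 rose on average, UVRAG and ATG16L1 fell, and ATG9A was not called. Of all tested genes 40.2% rose and 48.3% fell. By line, 9 of the 11 rose and 2 fell in each of HT-29, COLO 205 and HCT-15. SW 480 had 6 rises and 4 falls, COLO 320 6 and 2, and HCT 116 4 and 5. Of all tested genes 31% to 36.6% rose and 35.4% to 40.1% fell in each line. MAP1LC3B, the LC3 protein that is coupled to the growing membrane, rose by 1.06 ± 0.0132 (SE), or 2.09-fold (adjusted p = 1.59e-31). In HT-29, MAP1LC3B had 46.9, 47.2 and 47.2 RPKM with JQ1 and 16.4, 15.04 and 16.1 RPKM with DMSO. In HCT-15, MAP1LC3B had 41.9, 41.4 and 41.5 RPKM with JQ1 and 18.8, 17.02 and 17.6 RPKM with DMSO. In SW 480, MAP1LC3B had 80.0, 77.4 and 76.0 RPKM with JQ1 and 38.9, 38.4 and 39.2 RPKM with DMSO. Every JQ1 library was above every DMSO library of its line. In HCT 116, MAP1LC3B had 54.9, 52.5 and 55.0 RPKM with JQ1 and 27.5, 29.1 and 29.2 RPKM with DMSO. In COLO 205, MAP1LC3B had 38.9, 39.6 and 36.8 RPKM with JQ1 and 21.1, 20.4 and 19.9 RPKM with DMSO. In COLO 320, MAP1LC3B had 57.4, 57.7 and 57.0 RPKM with JQ1 and 31.9, 32.2 and 32.6 RPKM with DMSO. The order held in these lines as well, with the smallest rise, 0.82, in COLO 320 and the largest, 1.54, in HT-29. The near-identical gene MAP1LC3B2 was listed at 21.2 RPKM with JQ1 and 10.2 RPKM with DMSO over all lines with a change of 1.02, and reads of the pair could be split between them, so the level of each is uncertain. The related GABARAPL2 rose in all lines, by 0.34 in HCT 116 to 0.68 in HT-29. GABARAPL1 had 7.54 ± 0.439 RPKM with JQ1 and 2.55 ± 0.386 RPKM with DMSO in HT-29, a rise of 1.40, and 28.1 ± 0.776 RPKM with JQ1 and 30.6 ± 1.497 RPKM with DMSO in SW 480, which was not called (adjusted p = 0.123) but became a called fall with voom and with the line fitted alone. Its rise of 0.33 in HCT-15 was 0.21 with total reads as the divisor.

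Of the genes that start autophagy, ULK1, the initiating kinase, rose in every line, with 12.8 ± 0.311 RPKM with JQ1 and 5.01 ± 0.318 RPKM with DMSO in HT-29 and 18.4 ± 0.440 RPKM with JQ1 and 13.1 ± 0.558 RPKM with DMSO in COLO 320, and averaged 0.87 ± 0.0266 (SE). BECN1, the scaffold of the lipid kinase complex, rose in 5 lines by up to 0.79 in HT-29, and in HCT 116 the change of 0.04 was not called (adjusted p = 0.145). UVRAG, a partner of BECN1 in that complex, fell in all 6 lines and averaged -0.24 ± 0.0179 (SE; adjusted p = 3.20e-13). In HCT-15, UVRAG had 2.91, 3.00 and 2.93 RPKM with JQ1 and 3.98, 3.85 and 3.58 RPKM with DMSO. In HT-29, UVRAG had 5.39, 5.602 and 5.73 RPKM with JQ1 and 7.21, 6.64 and 7.11 RPKM with DMSO. In SW 480, UVRAG had 5.30, 4.76 and 5.17 RPKM with JQ1 and 6.19, 6.07 and 6.70 RPKM with DMSO. The falls were small but without overlap. In COLO 205, UVRAG had 7.53, 7.23 and 7.18 RPKM with JQ1 and 8.80, 9.31 and 8.96 RPKM with DMSO. In COLO 320, UVRAG had 6.27, 6.43 and 6.37 RPKM with JQ1 and 7.01, 7.06 and 7.24 RPKM with DMSO. In HCT 116, UVRAG had 2.22, 2.31 and 2.48 RPKM with JQ1 and 2.52, 2.71 and 2.48 RPKM with DMSO. COLO 205 and COLO 320 also did not overlap. In HCT 116 the groups did, and the call was lost with quantile scaling, voom, the line fitted alone, and without DMSO replicate 2, JQ1 replicate 1 or JQ1 replicate 2 (adjusted p between 0.00643 and 0.473 over its alternatives). WIPI1, which binds the lipid that the BECN1 complex makes, rose in 5 lines, most in COLO 320 with 2.28 ± 0.0904 RPKM with JQ1 and 1.15 ± 0.0858 RPKM with DMSO, and fell in HCT 116 with 5.88 ± 0.331 RPKM with JQ1 and 7.42 ± 0.197 RPKM with DMSO.

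In the conjugation system and for ATG9A the changes were mixed in direction. ATG7, the E1-like enzyme, had 21.5 ± 0.705 RPKM with JQ1 and 13.5 ± 0.328 RPKM with DMSO in COLO 205, a rise of 0.65. It also rose in HT-29 (0.22) and HCT-15 (0.26), and it fell slightly in SW 480 (-0.12) and HCT 116 (-0.10). ATG5 rose in 4 lines by at most 0.34, in HT-29. ATG16L1, its partner, averaged -0.18 ± 0.0150 (SE), with 9.90 ± 0.411 RPKM with JQ1 and 14.7 ± 0.657 RPKM with DMSO in SW 480 and 11.8 ± 0.481 RPKM with JQ1 and 16.4 ± 0.380 RPKM with DMSO in COLO 205, while small rises were called in HCT-15 (0.11) and COLO 320 (0.09). ATG9A, the lipid scramblase that seeds the membrane, averaged 0.03 ± 0.0152 (SE; adjusted p = 0.0639). It rose in HT-29 (0.45) and COLO 205 (0.33) and fell in HCT 116 (-0.11), SW 480 (-0.11), HCT-15 (-0.19) and COLO 320 (-0.19).

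All 4 cargo receptors rose on average, and none fell in any line, beside the same shares of all tested genes, 40.2% higher on average and 35.4% to 40.1% lower by line. BNIP3L, a mitochondrial outer membrane protein that links mitochondria to LC3 and GABARAP proteins, rose by 1.11 ± 0.0141 (SE), or 2.16-fold (adjusted p = 2.42e-31). In HT-29, BNIP3L had 16.6, 16.4 and 15.3 RPKM with JQ1 and 4.69, 4.59 and 4.78 RPKM with DMSO. In HCT-15, BNIP3L had 42.2, 41.9 and 42.9 RPKM with JQ1 and 16.1, 17.1 and 15.6 RPKM with DMSO. In COLO 205, BNIP3L had 27.1, 25.9 and 26.1 RPKM with JQ1 and 11.1, 10.99 and 10.8 RPKM with DMSO. Its level in HT-29 was the lowest of the 6 lines under either treatment, and its rise there was the largest. In HCT 116, BNIP3L had 25.0, 23.8 and 25.1 RPKM with JQ1 and 11.8, 11.2 and 12.1 RPKM with DMSO. In COLO 320, BNIP3L had 33.9, 33.6 and 33.5 RPKM with JQ1 and 18.9, 20.2 and 20.1 RPKM with DMSO. In SW 480, BNIP3L had 47.1, 44.7 and 43.5 RPKM with JQ1 and 29.0, 29.5 and 29.5 RPKM with DMSO. All 6 lines had JQ1 libraries above DMSO libraries. SQSTM1, also called p62, binds ubiquitin-tagged cargo and averaged 0.95 ± 0.00872 (SE), or 1.93-fold (adjusted p = 2.01e-34). In COLO 205, SQSTM1 had 480.2, 480.1 and 473 RPKM with JQ1 and 191, 187 and 194 RPKM with DMSO. In HT-29, SQSTM1 had 300.2, 299 and 290.2 RPKM with JQ1 and 114, 115 and 113 RPKM with DMSO. In HCT-15, SQSTM1 had 176, 178 and 176 RPKM with JQ1 and 69.0, 67.4 and 67.8 RPKM with DMSO. Each of these rises was over 2-fold. In SW 480, SQSTM1 had 228, 230.2 and 238 RPKM with JQ1 and 139, 130.03 and 135 RPKM with DMSO. In HCT 116, SQSTM1 had 134, 134 and 134 RPKM with JQ1 and 88.5, 89.1 and 89.6 RPKM with DMSO. In COLO 320, SQSTM1 had 17.2, 17.1 and 17.2 RPKM with JQ1 and 14.5, 13.7 and 14.6 RPKM with DMSO. COLO 320 stood apart in level and in change, with a rise of 0.26 ± 0.0214 (SE; adjusted p = 8.05e-12), below the mean of the other 5 lines (adjusted p = 7.23e-22). OPTN, optineurin, another ubiquitin-binding receptor, had 21.5 ± 0.911 RPKM with JQ1 and 7.15 ± 0.112 RPKM with DMSO in HT-29 and 2.62 ± 0.0607 RPKM with JQ1 and 2.02 ± 0.0422 RPKM with DMSO in COLO 320. TAX1BP1 had 114 ± 1.90 RPKM with JQ1 and 56.0 ± 0.220 RPKM with DMSO in HT-29 and rose in every line but COLO 320 (adjusted p = 0.324). Summed, the receptors had 448 ± 3.62 RPKM with JQ1 and 182 ± 0.679 RPKM with DMSO in HT-29 and 85.1 ± 0.400 RPKM with JQ1 and 68.3 ± 1.31 RPKM with DMSO in COLO 320.

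**Figure D3:**
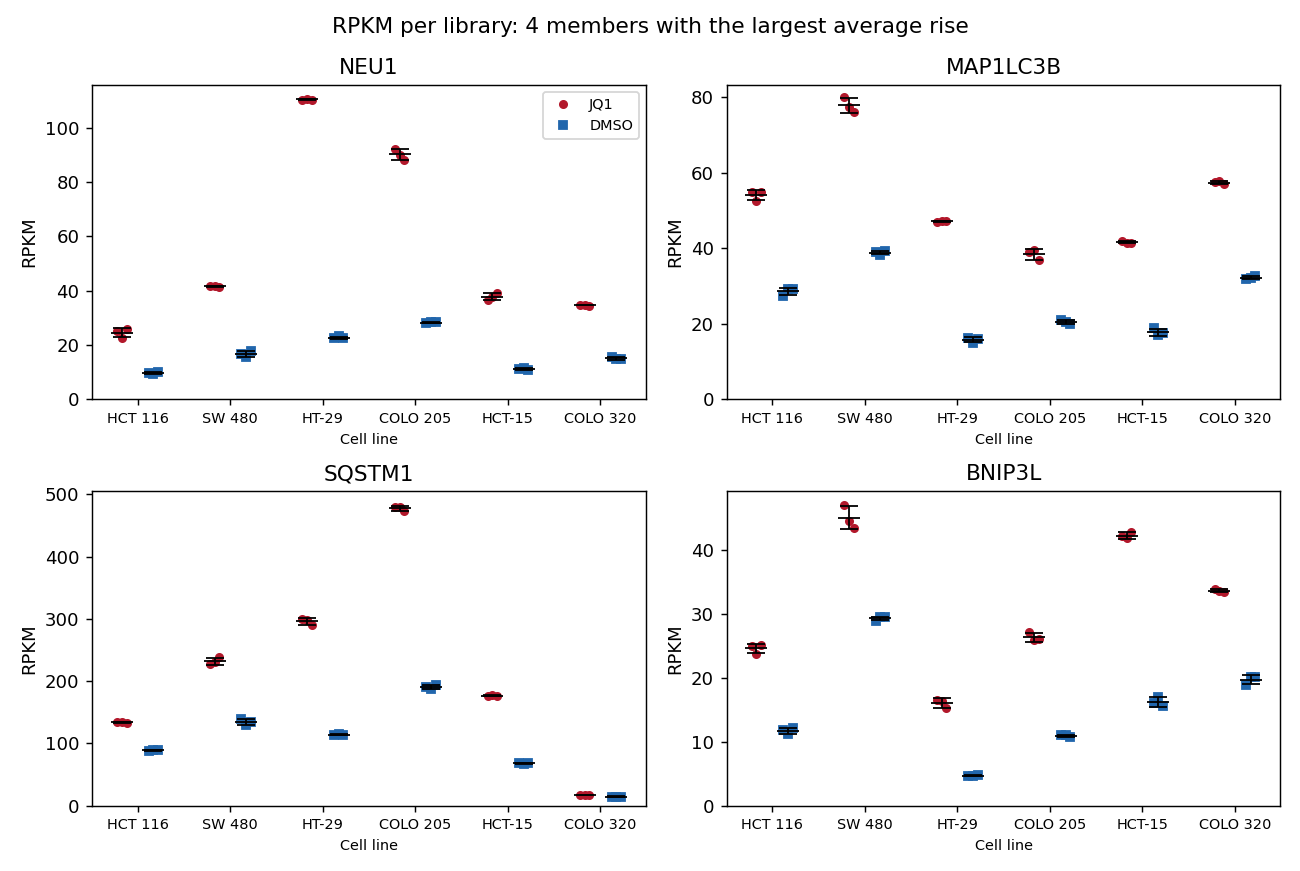
RPKM per library (points, JQ1 left of DMSO in each line, with group mean and SD as bars) of NEU1, MAP1LC3B, SQSTM1 and BNIP3L, the 4 genes with the largest average rise. In all 6 lines the 3 JQ1 points lie above the 3 DMSO points, and SQSTM1 in COLO 320 is the lowest pair of groups in its panel, with means of 17.2 RPKM with JQ1 and 14.2 RPKM with DMSO.

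The regulators split. TFEB fell in all 6 lines, -0.86 ± 0.0394 (SE) on average, or 1.82-fold lower (adjusted p = 3.92e-18). In COLO 205, TFEB had 6.34, 6.34 and 7.10 RPKM with JQ1 and 8.87, 10.1 and 10.7 RPKM with DMSO. In HT-29, TFEB had 1.82, 1.98 and 2.06 RPKM with JQ1 and 4.4998, 4.53 and 4.72 RPKM with DMSO. In COLO 320, TFEB had 1.02, 0.943 and 0.855 RPKM with JQ1 and 2.46, 2.57 and 3.36 RPKM with DMSO. The DMSO libraries were the higher ones in each line. In SW 480, TFEB had 0.875, 0.905 and 0.708 RPKM with JQ1 and 2.49, 2.63 and 2.17 RPKM with DMSO. In HCT 116, TFEB had 0.982, 0.809 and 0.953 RPKM with JQ1 and 1.24, 1.53 and 1.62 RPKM with DMSO. In HCT-15, TFEB had 0.268, 0.295 and 0.165 RPKM with JQ1 and 0.885, 0.645 and 0.775 RPKM with DMSO. The level was lowest in HCT-15, where the JQ1 libraries held 22, 17 and 11 reads and the DMSO libraries 59, 45 and 57 reads. The change was -1.19 in COLO 320 to -0.47 in HCT 116 on this scale, which understates it at these levels. In HCT-15 it was -0.77, but -1.35 with a pseudocount of 0.1, -0.51 with a pseudocount of 1 and -1.66 with voom on reads. In COLO 320 those values were -1.47, -0.96 and -1.56, so the line with the largest fall depended on the scale. TFE3, the related factor, had a mean level over all lines of 19.6 RPKM with JQ1 and 19.3 RPKM with DMSO and averaged 0.05 ± 0.0105 (SE; adjusted p = 4.37e-05), a call lost with total reads as the divisor and when each line counted as 1 unit (adjusted p between 9.21e-07 and 0.687 over its alternatives). It had 17.2 ± 0.488 RPKM with JQ1 and 13.7 ± 0.481 RPKM with DMSO in COLO 205 and 31.5 ± 0.758 RPKM with JQ1 and 38.5 ± 0.959 RPKM with DMSO in SW 480, a rise and a fall. RNA levels do not show where TFEB and TFE3 proteins were in the cell.

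**Figure D4:**
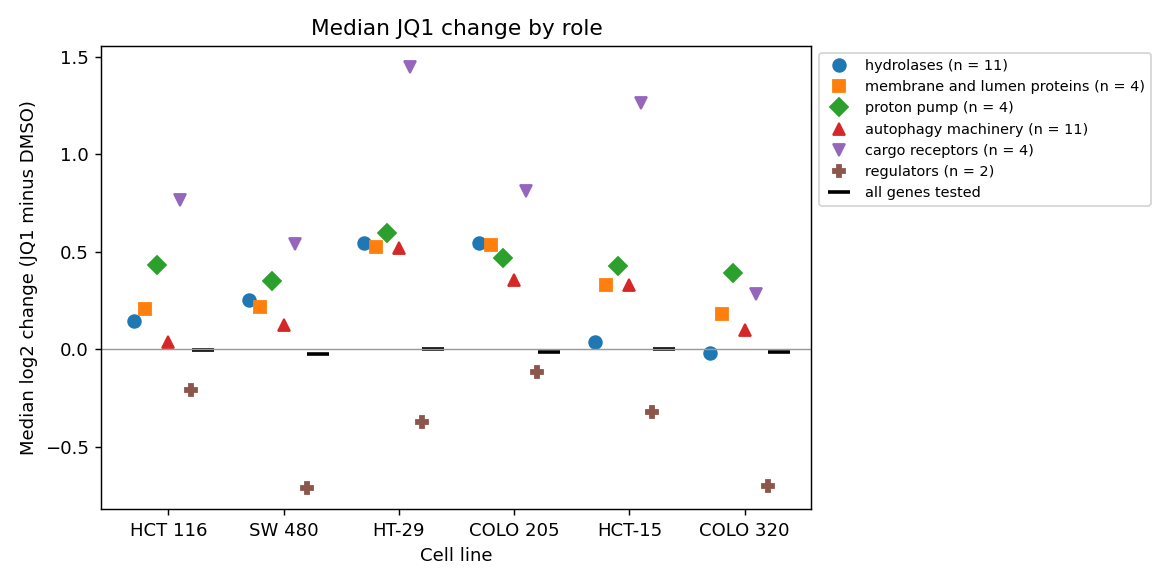
Median change with JQ1 (JQ1 minus DMSO, log2 of RPKM + 0.5) of the members of each role in each line, with the median of all tested genes for comparison. Cargo receptors have the highest median in HT-29, 1.45, and in COLO 320 it is 0.28, while the medians of all tested genes lie between -0.02 and 0.

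Lines differed in how much the set moved, and the difference was tested gene by gene against the mean change of the other 5 lines. HT-29 was higher than that mean for 27 members and lower for 2 (background 35.5% and 29%), with a median difference of 0.34. COLO 205 was higher for 21 and lower for 7 (34.1% and 33.4%), with a median difference of 0.14. HCT-15 was higher for 16 and lower for 8 (34.8% and 25.9%), with a median of 0.08. COLO 320 was higher for 8 and lower for 26 (32.4% and 32%), with a median of -0.28. SW 480 was higher for 5 and lower for 23 (32.1% and 33.5%), with a median of -0.16. HCT 116 was higher for 8 and lower for 22 (32.5% and 28.4%), with a median of -0.11. The roles did not all follow this order. In COLO 320 ATP6V1A rose by more than the mean of the other 5 lines (0.55), as did WIPI1 (0.75) and GABARAPL2 (0.57), while CTSB and GAA rose most in COLO 205 and GLA most in SW 480. COLO 320 was also the line that lacked several epithelial markers. Its summed fibroblast markers were lower with JQ1. So were those of HCT-15, at 0.181 to 0.269 RPKM with JQ1 and 0.293 to 0.364 RPKM with DMSO. SW 480 and HCT 116, also lower than higher for more members, had 7 and 6 of the 9 epithelial markers at 1 RPKM under both treatments. Whether markers and changes are linked was not tested.

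Without drug the lines differed in every member: the F test of equal DMSO levels was called for 36 of 36, where 98.8% of all tested genes were called. The highest DMSO mean was in COLO 205 for 10 members, SW 480 for 9, HT-29 for 8, COLO 320 for 7, HCT-15 for 2 and HCT 116 for 0. The lowest was in HCT 116 for 11, COLO 320 for 9, HT-29 and COLO 205 for 6 each, and SW 480 and HCT-15 for 2 each. The same counts were not made over all tested genes, so they do not show a line to be rich or poor in these genes in particular. The widest ranges were those of GAA, from 1.06 RPKM in COLO 205 to 64.1 RPKM in COLO 320, CTSH, from 2.78 RPKM in SW 480 to 114 RPKM in HT-29, and CTSL, from 1.02 RPKM in COLO 205 to 24.9 RPKM in HCT-15. SQSTM1 ranged from 14.2 RPKM in COLO 320 to 191 RPKM in COLO 205, NPC2 from 25.4 RPKM in COLO 320 to 325 RPKM in SW 480, TFEB from 0.768 RPKM in HCT-15 to 9.88 RPKM in COLO 205 and CTSB from 31.4 RPKM in HT-29 to 329 RPKM in COLO 205. The pump was more even, with ATP6V1H between 16.4 RPKM in COLO 320 and 22.8 RPKM in COLO 205 and ATP6V0D1 between 31.3 RPKM in HCT 116 and 51.6 RPKM in COLO 205. BECN1 and ATG5 also varied little, from 32.6 RPKM in COLO 320 to 52.1 RPKM in COLO 205 and from 11.9 RPKM in COLO 205 to 19.6 RPKM in HT-29.

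**Figure D5:**
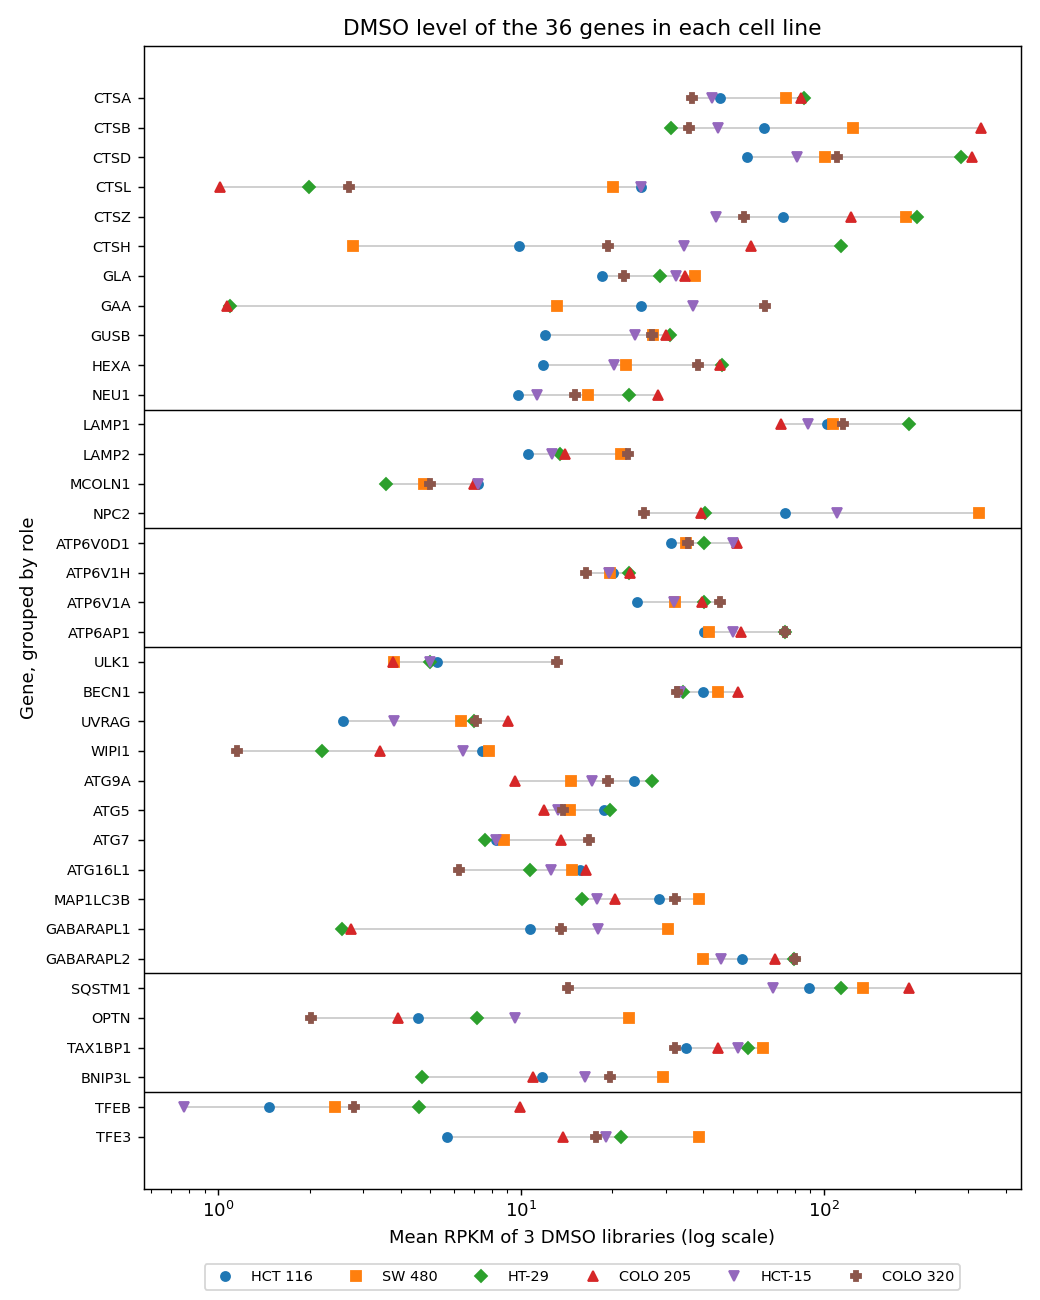
DMSO level of each of the 36 genes in the 6 lines (mean RPKM of 3 libraries, log axis, 1 point per line, genes by role). GAA spans 1.06 RPKM in COLO 205 to 64.1 RPKM in COLO 320, while ATP6V1H spans 16.4 RPKM in COLO 320 to 22.8 RPKM in COLO 205.

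Further genes of the same pathways were counted from lists drawn up with earlier results known, beside the average background of 40.2% higher and 48.3% lower. Of 37 other hydrolases 30 rose and 5 fell, with a median of 0.37. IDUA, alpha-iduronidase, and FUCA1, a fucosidase, rose most. IDUA had 5.06 RPKM with JQ1 and 2.10 RPKM with DMSO, a change of 1.09, and FUCA1 had 36.4 RPKM with JQ1 and 16.6 RPKM with DMSO, a change of 1.02. CTSS, cathepsin S, and PPT1, palmitoyl-protein thioesterase, fell most. CTSS had 0.416 RPKM with JQ1 and 3.39 RPKM with DMSO, a change of -1.06, and PPT1 had 52.4 RPKM with JQ1 and 76.4 RPKM with DMSO, a change of -0.62. Of 24 other lysosomal membrane and trafficking genes 18 rose and 5 fell, with a median of 0.32. TMEM175, a cation channel, and LAMP3 rose most (1.35 and 1.10), and CLN3, the Batten disease protein, and LAPTM4B fell most (-1.14 and -0.37). CLN3 had 6.64 RPKM with JQ1 and 15.4 RPKM with DMSO. Of 18 other pump genes 12 rose and 4 fell, with a median of 0.18. ATP6AP2 (0.70) and ATP6V0A1 (0.56) rose most, and ATP6V1C2 (-0.56) and ATP6V0D2 (-0.50) fell most, the last with a change of -3.01 in COLO 320 and at most 0.02 in the other lines.

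Of 40 other autophagy genes 31 rose and 7 fell, with a median of 0.26. MAP1LC3B2 and ATG2A, a lipid transfer protein, rose most (1.02 and 0.92). ATG3, the E2-like enzyme of LC3 conjugation, and VPS33A, of the tethering complex that serves fusion with lysosomes, fell most (-0.40 and -0.38). Of 13 other receptors and mitophagy genes 11 rose and 2 fell, with a median of 0.20. PINK1, the kinase that marks damaged mitochondria, had 33.2 RPKM with JQ1 and 14.2 RPKM with DMSO, a change of 1.21, and CCPG1, a receptor for endoplasmic reticulum, changed by 0.56. FUNDC1, a mitophagy receptor, had 8.11 RPKM with JQ1 and 15.6 RPKM with DMSO, a change of -0.90, and STBD1, which binds glycogen, changed by -0.18. Of 28 tested genes of regulation and nutrient sensing, from 29 listed, 18 rose and 8 fell, with a median of 0.26. SESN3, a sestrin, and RRAGC, a Rag GTPase, rose most (1.24 and 0.74). RRAGD, another Rag GTPase, and LAMTOR4, a part of the Ragulator complex, fell most (-0.64 and -0.51).

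Some calls with small changes hung on 1 library or setting. In HCT 116 these were CTSL (lost at a pseudocount of 0.1, without the filter, with total reads, with median centring, and without DMSO replicate 1 or 2 or JQ1 replicate 2 or 3; adjusted p between 4.21e-04 and 0.112 over its alternatives), ATG7 (lost with the line fitted alone or without DMSO replicate 3; adjusted p between 0.00190 and 0.110 over its alternatives) and TFE3 (lost under 11 of 15 alternatives; adjusted p between 0.0290 and 0.295 over its alternatives). In SW 480 they were ATG9A (lost without DMSO replicate 1; adjusted p between 0.00183 and 0.0585 over its alternatives) and ATG5 (lost with the line fitted alone, without DMSO replicate 1 or without JQ1 replicate 1; adjusted p between 0.00101 and 0.0946 over its alternatives). In COLO 205 they were WIPI1, whose groups overlapped (lost with the line fitted alone, without DMSO replicate 1 or without JQ1 replicate 3; adjusted p between 7.60e-04 and 0.171 over its alternatives), and ATG5 (lost under 6 of 15 alternatives, among them without DMSO replicate 3 or any JQ1 replicate; adjusted p between 0.00395 and 0.207 over its alternatives). CTSL there became a called change without DMSO replicate 1 (adjusted p between 0.00740 and 0.962 over its alternatives). In HCT-15 they were GUSB (lost without DMSO replicate 2 or JQ1 replicate 3 and turned to -0.02 with total reads; adjusted p between 0.00816 and 0.639 over its alternatives) and ATG16L1 (lost with quantile scaling, the line fitted alone or without DMSO replicate 3 and turned to -0.01 with total reads; adjusted p between 0.00279 and 0.828 over its alternatives), and with total reads TFE3 was lost and GAA became a called fall. In COLO 320 they were GLA (lost with the line fitted alone, without DMSO replicate 3 or without JQ1 replicate 3; adjusted p between 0.00129 and 0.106 over its alternatives) and ATG16L1 (lost with voom, without DMSO replicate 1 or without JQ1 replicate 3; adjusted p between 0.00329 and 0.119 over its alternatives). CTSA became a called fall there without DMSO replicate 3, and MCOLN1 a called rise without JQ1 replicate 2, with quantile scaling and with median centring, as did HEXA with the same 2 scalings. HEXA in HT-29 was lost with total reads, and BECN1 in HCT 116 became a called rise with quantile scaling. ATG9A became a called rise on average with quantile scaling, with median centring and without any 1 of 7 libraries, which were SW 480 DMSO replicate 1, HT-29 DMSO replicate 3, COLO 205 DMSO replicates 1 and 3, HCT-15 JQ1 replicate 1, COLO 320 DMSO replicate 1 and COLO 320 JQ1 replicate 3. In RefSeq 8 members overlap another gene of the table: CTSA with PLTP, GLA with RPL36A-HNRNPH2, NPC2 with SYNDIG1L and MIR4709, BECN1 with CNTD1, WIPI1 with ARSG, PRKAR1A and MIR635, ATG7 with VGLL4, ATG16L1 with SCARNA5 and SCARNA6, and SQSTM1 with MGAT4B and MRNIP. The sources used here do not state strand use in counting, so reads of such pairs cannot be told apart.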

How the data were processed

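RNA sequencing of 36 libraries was used. Per the labels' protocols RNA was column-purified with DNase and made into TruSeq libraries; the sources used here give neither read length nor strand use. The authors deposited RPKM per gene. The submitters' processing notes name GSNAP, DESeq and limma without versions, and the build NCBIM37, a mouse assembly name, although the gene numbers are human, so no coordinates were taken from the files. Symbols were matched by Entrez number through RefSeq for 24519 of 26468 genes. All 36 value columns matched a sample. The RPKM steps gave whole reads, within 0.01 read, for all 23499 genes above 0. The divisor the authors used was 19.1 to 52.4 M reads per library. Chi-square per gene between replicates was 1.22 to 3.20 over 36 pairs. Counting noise alone gives about 1, so the lowest values do not show the libraries to be separate cultures. All 36 libraries were kept as separate in the tests.

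Genes with at least 1 RPKM in 3 or more libraries were tested on log2(RPKM + 0.5) with limma 3.58.1 in R 4.3.3, fitted to 12 group means over 36 libraries with 24 residual and 2.97 prior degrees of freedom and a mean-variance trend. Two-sided p-values were adjusted by Benjamini and Hochberg's method over 15542 genes. Of these steps the limma fit alone was tested on simulated data, for the JQ1 change in HT-29. The members and lists were chosen with earlier results of these data known. Full library values are given for the 4 largest average rises, the 4 largest falls and the 4 widest members called in both directions; of each pathway list the 2 largest rises and falls are named. Alternatives were 2 pseudocounts, no filter, quantile scaling, total reads, median centring, voom on recovered reads, a replicate block, each line alone, the cell line as the unit, and each library left out. Tables and figures used Python 3.11.15.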

Additional observations from a re-analysis of the deposited data

Results flagged for a closer look

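For all 36 members the change with JQ1 differed between the 6 lines in limma's F test with Benjamini-Hochberg adjustment, a test of the difference itself. As 93.3% of all tested genes passed it, passing is no mark of these genes. Among the acid hydrolases the adjusted p was 1.11e-19 for CTSA, 8.60e-24 for CTSB, 7.07e-18 for CTSD, 1.39e-17 for CTSL, 2.16e-20 for CTSZ, 3.46e-09 for CTSH, 5.07e-09 for GLA, 3.25e-21 for GAA, 5.85e-08 for GUSB, 3.47e-14 for HEXA and 5.44e-16 for NEU1. Among the membrane and lumen genes the adjusted p was 8.23e-19 for LAMP1, 4.08e-09 for LAMP2, 8.62e-05 for MCOLN1 and 1.00e-20 for NPC2. Among the proton pump genes the adjusted p was 1.67e-13 for ATP6V0D1, 6.31e-08 for ATP6V1H, 1.57e-07 for ATP6V1A and 1.93e-12 for ATP6AP1. Among the autophagy machinery genes the adjusted p was 2.31e-08 for ULK1, 5.30e-18 for BECN1, 0.00888 for UVRAG, 1.28e-10 for WIPI1, 4.53e-13 for ATG9A, 4.44e-06 for ATG5, 4.30e-14 for ATG7, 9.79e-13 for ATG16L1, 6.01e-14 for MAP1LC3B, 5.39e-13 for GABARAPL1 and 1.39e-08 for GABARAPL2. Among the cargo receptors the adjusted p was 1.01e-23 for SQSTM1, 3.46e-17 for OPTN, 1.04e-18 for TAX1BP1 and 5.28e-17 for BNIP3L. Among the regulators the adjusted p was 1.72e-05 for TFEB and 1.28e-15 for TFE3. The smallest of these ranges of change was that of UVRAG, -0.32 in HCT-15 to -0.12 in HCT 116, and the widest that of CTSL, -1.46 in COLO 320 to 0.73 in HT-29.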

How the results depend on the processing

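Over members and contrasts 4860 values were recomputed; 4748 kept their direction and their side of the threshold, 84 lost a call, 24 gained one and 4 reversed. Leaving out 1 library reversed 0 of them, lost 36 calls and gained 10. The 4 reversals were CTSZ in COLO 205 (0.0879) and LAMP1 in COLO 320 (0.0533) with quantile scaling, and GUSB (-0.0206) and ATG16L1 (-0.0112) in HCT-15 with total reads as the divisor. With the cell line as the unit 2 members fell on average, in place of 7. Over all tested genes 3162 fell, in place of 7500. That test has fewer degrees of freedom and takes its spread from differences between lines. The cause of these changes and of the others was not tested. Every other count of members over the whole set, per line, on average or in the F tests, was within 1.5 times its main value. Over the alternatives that kept all libraries and tested each line, 12 to 16 members rose in all 6 lines, 1 or 2 fell in all 6 and 11 or 12 did both, against 13, 2 and 11 as reported. With the replicate number as a block 28 members rose and 7 fell on average, and TFE3 in HCT 116 (adjusted p = 0.119), CTSZ and ATG5 in COLO 205 were lost. Same-numbered libraries shared only a number: their deviations correlated at -0.15 to 0.05 over 18 pairs, and 6 of 18 JQ1 libraries were closest to the DMSO library of their own number. Depth limits TFEB in HCT-15, with as few as 11 reads, and CTSL in COLO 320 with JQ1, with as few as 27 reads.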

Other observations

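Counts of the wider pathway lists are given by line as a description. Over all tested genes the shares called higher and lower were 36.6% and 37.3% for HT-29, 31% and 37.2% for COLO 320, 33.9% and 40.1% for SW 480, and 34.2% and 38.6% for COLO 205. Of the 37 other hydrolases 28 rose and 5 fell in HT-29, and 21 rose and 10 fell in COLO 320. Of the 40 other autophagy genes 32 rose and 3 fell in HT-29, 28 rose and 7 fell in COLO 320, and 20 rose and 9 fell in SW 480. Of the 24 other membrane genes 18 rose and 4 fell in COLO 205, and 11 rose and 6 fell in COLO 320. Among the genes named from those lists, IDUA changed by 1.01 in HT-29 and 1.23 in COLO 205 on the log2 scale, and CLN3 by -0.89 in HCT 116 and -1.37 in COLO 320. FUCA1 changed by 1.78 in HT-29 and 0.12 in COLO 320, PINK1 by 2.12 in HT-29 and 0.78 in COLO 320, and SESN3 by 1.98 in SW 480 and 0.20 in HCT 116. CTSS changed by -2.70 in COLO 205, -1.83 in SW 480 and -1.55 in HT-29, against 0.05 in HCT 116 and -0.06 in HCT-15. RRAGD changed by -1.85 in HCT-15 and -1.26 in HCT 116, against 0.01 in HT-29 and -0.01 in COLO 205. Test results for differences between lines in these genes are not given here.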
